A study of Mus musculus with 18 samples.

Results

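The genes described here handle zinc inside macrophages: the metallothioneins *Mt1* and *Mt2*, the metal-sensing transcription factor *Mtf1*, the zinc exporter *Slc30a1* and the zinc importer *Slc39a14*. They were taken from the gene count file by gene name, in all 6 conditions, and all 5 names were found among the 56748 genes listed. Of these, 27701 genes had a count in at least 1 library and 13691 had enough counts to be tested, with all 5 zinc genes among them.

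Metallothioneins are small cysteine-rich proteins that bind zinc and copper and take up reactive electrophiles. MTF1 binds metal response elements in the promoters of metallothionein genes and of *Slc30a1* when free zinc rises, so that binding capacity and export follow the zinc level. Transporters of the SLC30 (ZnT) family move zinc out of the cytosol and those of the SLC39 (ZIP) family move it in, and ZIP14, the product of *Slc39a14*, also carries iron and manganese.

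RNA was sequenced from RAW264.7 cells, a mouse macrophage line, in 18 libraries, with 3 biological replicates in each condition by the study's methods. Control cells were left untreated, and TBHQ cells received 5 µM tert-butylhydroquinone, a phenolic food antioxidant, for 4 h. LPS cells received 0.1 µg/mL lipopolysaccharide, a bacterial stimulus, for 12 h, and PIC cells received 20 µg/mL Poly(I:C), a mimic of double-stranded viral RNA, for 12 h. LPS + TBHQ and PIC + TBHQ cells received TBHQ at the same dose for 4 h and then the stimulus for 12 h. The study dissolved TBHQ in DMSO and names no DMSO for the control, LPS or PIC cells of the RNA experiment. In every TBHQ comparison, TBHQ and its solvent therefore cannot be told apart. The TBHQ cells were collected at the end of the pretreatment and the stimulated cells 12 h later, so a difference in the size of the TBHQ change between unstimulated and stimulated cells cannot be told apart from a difference in time. The study's methods text does not time the harvest of the control cells, while a figure legend and a table footnote place them in the 12 h design with the LPS and PIC cells. By that account TBHQ alone and its control differ in harvest time, so treatment and time cannot be told apart in that comparison. In bulk RNA, fewer cells of a type and less RNA per cell cannot be told apart.

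Gene counts summed to at least 14423390 and at most 18851626 in a library. The mitochondrial share was 2.03% to 2.18% in the control libraries and 1.67% to 1.92% in all others. The part of this difference in the results was not tested. Levels are given as CPM, counts scaled to a common library size after TMM scaling, and levels of different genes are compared only as FPKM, which also divides by gene length. Changes are log2 fold changes from edgeR, and the FDR is from its quasi-likelihood test, with Benjamini-Hochberg adjustment of p over the 13691 genes. A gene was called at an FDR below 0.05. The SE given after ± (n = 3 against 3) is from the spread of log2 CPM between the replicates of that gene alone, and is not the error that the test uses. Comparisons with the control share the 3 control libraries, and the LPS and PIC libraries serve both as treated and as reference groups.

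The macrophage identity of the cells was checked with marker genes. The 6 macrophage markers (*Adgre1*, *Cd68*, *Csf1r*, *Lyz2*, *Itgam* and *Ptprc*) summed to between 6413 and 8201 CPM in each library. *Lyz2* made up most of that sum, with a mean of 5245 CPM. The sums of all LPS, PIC, TBHQ and PIC + TBHQ libraries were below those of all control libraries. Those of the LPS + TBHQ libraries overlapped the control. The markers moved in different directions: *Adgre1* gave 1.45 ± 0.05 with LPS and 1.86 ± 0.06 with PIC, and *Itgam* 0.96 ± 0.09 and 1.25 ± 0.05. *Csf1r* gave -0.75 ± 0.04 and -0.85 ± 0.05, and *Lyz2* -0.30 ± 0.04 and -0.40 ± 0.04, all of them called in edgeR. *Cd68* was called with LPS only (-0.13 ± 0.03) and *Ptprc* with PIC only (0.51 ± 0.03). With TBHQ alone *Adgre1* gave -0.53 ± 0.09, *Itgam* -0.41 ± 0.06, *Lyz2* -0.16 ± 0.03 and *Csf1r* 0.18 ± 0.03, also called. With TBHQ over LPS and over PIC, 5 of the 6 markers were called: *Adgre1* (-0.34 ± 0.03 and -0.53 ± 0.04), *Ptprc* (-0.10 ± 0.03 and -0.31 ± 0.03), *Csf1r* (0.39 ± 0.04 and 0.45 ± 0.06), *Lyz2* (0.25 ± 0.03 and 0.22 ± 0.04) and *Cd68* (0.11 ± 0.03 and 0.11 ± 0.02). Of all tested genes, 11.7% were called higher and 12.2% lower with TBHQ over LPS, and 15.8% and 15.5% over PIC. The part of these markers in the results on the zinc genes was not tested. Epithelial, fibroblast, T cell, B cell and neutrophil markers together gave few counts, with at most 8 in a library for any of these lists.

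*Mt1* (ENSMUSG00000031765, chromosome 8, 94905710 to 94906955 on the plus strand in the authors' files) was by far the most abundant of the zinc genes, with a mean of 299 FPKM over the 18 libraries, rank 153 of the 13691 tested genes. On the same FPKM scale *Mt2* averaged 35.8, *Slc39a14* 6.69, *Slc30a1* 6.68 and *Mtf1* 5.67. The metallothionein transcripts therefore stood well above their regulator and the transporters per length.

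In the control libraries *Mt1* measured 299, 319 and 267 CPM, and with TBHQ alone it measured 328, 345 and 340.2 CPM. Every TBHQ library was above every control library, although the highest control library came close to the lowest TBHQ library. The change was 0.20 ± 0.08 on the log2 scale (FDR 0.00136 in edgeR), and it was 0.13 without control replicate 3, the library with the lowest level. After LPS, *Mt1* measured 325, 309 and 336 CPM, and after LPS + TBHQ 425, 431 and 431 CPM. The LPS libraries overlapped the control libraries, whereas the LPS + TBHQ libraries lay close together and far above those with LPS alone. TBHQ raised *Mt1* by 0.41 ± 0.04 over LPS (edgeR FDR 1.17e-08), while LPS against the control gave 0.13 ± 0.08 (edgeR FDR 0.0168). This last call was lost without control replicate 3 (0.07), without LPS replicate 3 (0.12) and with total library sizes (0.05).

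After PIC, *Mt1* measured 371, 402 and 349 CPM, and after PIC + TBHQ 453, 462 and 449 CPM. All PIC libraries were above all control libraries, and all PIC + TBHQ libraries were above all PIC libraries. The change with PIC was 0.34 ± 0.10 (edgeR FDR 7.82e-08), or 0.12 with total library sizes, and TBHQ added 0.28 ± 0.06 over PIC (edgeR FDR 8.36e-06). Ordered by mean, the level rose from control through LPS, TBHQ, PIC and LPS + TBHQ to PIC + TBHQ. Control overlapped LPS and LPS overlapped TBHQ in that order, and each later neighbour was separated. *Mt1* was higher with PIC than with LPS (0.21 ± 0.07, edgeR FDR 7.55e-04), a call that total library sizes did not give (0.08). PIC + TBHQ against LPS + TBHQ gave 0.08 ± 0.01 and did not pass the test (edgeR FDR 0.22).

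*Mt2* (ENSMUSG00000031762, chromosome 8, 94899292 to 94900196 on the plus strand in the authors' files) lies 5513 bases upstream of *Mt1* on the same strand. It changed by a larger factor than *Mt1* in each comparison with the control. Control libraries measured 8.12, 11.8 and 10.6 CPM and TBHQ libraries 17.3, 19.1 and 20.2 CPM, a clear separation between both sets. With TBHQ alone *Mt2* was higher than in the control by 0.89 ± 0.17, which is 1.85-fold (edgeR FDR 4.97e-05). After LPS the libraries measured 15.0, 13.1 and 19.7 CPM, and after LPS + TBHQ 23.9, 26.7 and 31.4 CPM. LPS libraries were all above the control libraries, and LPS + TBHQ libraries were all above the LPS libraries. The change was 0.64 ± 0.23 with LPS (edgeR FDR 0.0017), and TBHQ added 0.78 ± 0.20 over LPS (edgeR FDR 1.04e-04).

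After PIC, *Mt2* measured 17.4, 17.8 and 29.4 CPM, and after PIC + TBHQ 34.0, 27.0 and 32.9 CPM. PIC replicate 3, which is also the most deeply sequenced library, stood apart from the other PIC libraries and fell within the PIC + TBHQ range. The increase with PIC was 1.10 ± 0.29, or 2.14-fold (edgeR FDR 3.17e-07), and it was 0.80 without PIC replicate 3. TBHQ added 0.53 ± 0.27 over PIC (edgeR FDR 0.00365), which became 0.82 without PIC replicate 3, while the call was lost in DESeq2 (0.53) and without PIC replicate 1 (0.38) or 2 (0.39). PIC against LPS gave 0.45 ± 0.30 (edgeR FDR 0.0249), but the libraries overlapped and the value fell to 0.14 without PIC replicate 3. That call was also lost without LPS replicate 1 (0.41) or 2 (0.33), in DESeq2 (0.45), with total library sizes (0.32) and in limma on log2(FPKM + 1) (0.41) or log2(FPKM + 0.1) (0.42). Ordered by mean, *Mt2* rose in the same sequence of conditions as *Mt1*, and above the control each neighbouring pair overlapped except control and LPS.

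The ratio of *Mt1* to *Mt2* in FPKM was 17.4, 12.8 and 11.9 in the control libraries. It was lower in the treated groups, at 8.46 ± 0.486 (SD, n = 3) with TBHQ, 9.80 ± 1.56 with LPS and 8.77 ± 2.76 with PIC. It was 7.50 ± 0.968 with LPS + TBHQ and 6.93 ± 0.995 with PIC + TBHQ. The lowest control ratio, 11.9, was above the highest ratio of any other library, 11.1, although no test of the ratio was made. Counts of *Mt2* are less certain than those of *Mt1*: of its words of 50 bases in the GENCODE transcripts, 45.8% also occur, on the other strand, in the antisense gene *Gm45774*, against 0% of other-gene words for *Mt1*. *Gm45774* itself had 133 counts over all libraries and *Mt2* had 6001. The study's methods describe the libraries as strand-specific, but whether the counting used strand is not given in the sources used here.

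**Figure D1:**
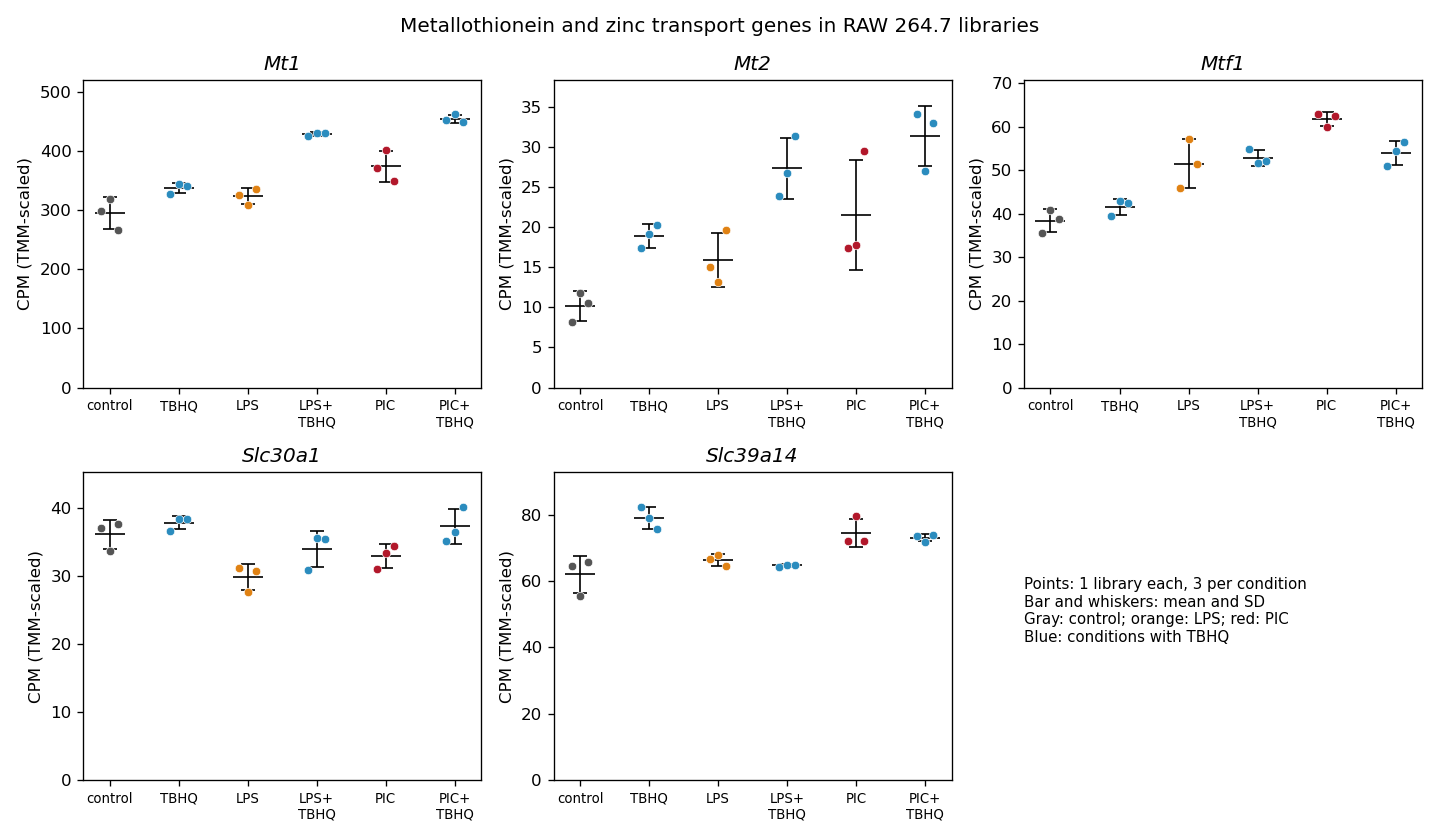
TMM-scaled CPM (vertical axes, from 0) of *Mt1*, *Mt2*, *Mtf1*, *Slc30a1* and *Slc39a14* in each of the 6 conditions (horizontal axes), with 1 point per library and bars for the mean and SD of 3 libraries. *Mt1* and *Mt2* were highest after PIC + TBHQ, *Mtf1* after PIC, and *Slc39a14* with TBHQ alone.

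*Mtf1* (ENSMUSG00000028890, chromosome 4, 124695897 to 124743593 on the plus strand in the authors' files) was raised by both stimuli and was not called with TBHQ alone. Control libraries measured 35.6, 40.8 and 38.7 CPM and TBHQ libraries 39.4, 42.9 and 42.4 CPM, and these sets overlapped. The difference of 0.11 ± 0.07 was not called (edgeR FDR 0.215). With LPS the libraries measured 46.0, 57.2 and 51.5 CPM, and with LPS + TBHQ 54.9, 51.6 and 52.0 CPM. All of these were above every control library, and the LPS + TBHQ values lay inside the wider LPS range. LPS raised *Mtf1* by 0.42 ± 0.11 (edgeR FDR 1.45e-06), and TBHQ over LPS gave 0.04 ± 0.10, which was not called (edgeR FDR 0.757).

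With PIC, *Mtf1* measured 62.9, 59.9 and 62.4 CPM, and with PIC + TBHQ 51.0, 54.3 and 56.5 CPM. The PIC libraries were the highest of all 18, and the PIC + TBHQ libraries fell between them and the control. PIC raised *Mtf1* by 0.68 ± 0.06, or 1.61-fold (edgeR FDR 2.01e-11). TBHQ lowered it by comparison with PIC, at -0.19 ± 0.05 (edgeR FDR 0.016), a call lost without PIC + TBHQ replicate 1 (-0.16) and with total library sizes (-0.13). *Mtf1* was thus the only one of the 5 genes called lower with TBHQ in stimulated cells, while *Mt1* and *Mt2* were called higher in the same libraries. PIC exceeded LPS by 0.26 ± 0.09 (edgeR FDR 0.00175), a call lost with total library sizes (0.13), and with TBHQ present the stimuli gave 0.03 ± 0.05 (edgeR FDR 0.801). The antisense gene *1110065P20Rik* overlaps *Mtf1* and shares 7.55% of its words of 50 bases, with 3207 counts against 14205 for *Mtf1*.

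*Slc30a1* (ENSMUSG00000037434, chromosome 1, 191638879 to 191645359 on the plus strand in the authors' files) encodes ZnT1, the zinc exporter of the plasma membrane. Control libraries measured 37.1, 33.7 and 37.7 CPM and TBHQ libraries 36.7, 38.4 and 38.5 CPM. These sets overlapped, and the difference of 0.07 ± 0.06 was not called (edgeR FDR 0.527). LPS libraries measured 31.2, 27.7 and 30.8 CPM and LPS + TBHQ libraries 30.9, 35.7 and 35.5 CPM. All LPS libraries were below all control libraries, and LPS + TBHQ replicate 1 lay within the LPS range while the other LPS + TBHQ libraries were above it. LPS lowered *Slc30a1*, at -0.27 ± 0.07 (edgeR FDR 0.00178). TBHQ over LPS gave 0.19 ± 0.09 and missed the threshold (edgeR FDR 0.0565), though it passed without LPS + TBHQ replicate 1 (0.25), with total library sizes (0.21) and with a replicate block (0.19).

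PIC libraries measured 31.0, 33.4 and 34.4 CPM for *Slc30a1* and PIC + TBHQ libraries 35.2, 36.6 and 40.2 CPM. The PIC + TBHQ libraries were all above the PIC libraries, and 1 PIC library reached the control range. PIC against control gave -0.13 ± 0.07 (edgeR FDR 0.112), which was called without control replicate 2 (-0.18) and with total library sizes (-0.35). TBHQ over PIC gave 0.18 ± 0.07 (edgeR FDR 0.053), which was called without PIC + TBHQ replicate 1 (0.22), without LPS + TBHQ replicate 1 (0.18), with total library sizes (0.25) and with a replicate block (0.18). Ordered by mean, the level rose from LPS through PIC, LPS + TBHQ, control and PIC + TBHQ to TBHQ, and every neighbouring pair overlapped. PIC against LPS gave 0.14 ± 0.07 (edgeR FDR 0.155) and PIC + TBHQ against LPS + TBHQ 0.13 ± 0.09 (edgeR FDR 0.19), neither of them called. The antisense gene *1700034H15Rik* shares 8.01% of the words of *Slc30a1* and had 272 counts against 9944.

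*Slc39a14* (ENSMUSG00000022094, chromosome 14, 70540918 to 70588874 on the minus strand in the authors' files) was higher with TBHQ alone than in the control. Control libraries measured 64.5, 55.5 and 65.9 CPM and TBHQ libraries 82.4, 79.1 and 75.8 CPM. The TBHQ libraries were well above the control libraries and included the highest value of all 18. The change was 0.35 ± 0.09, or 1.28-fold (edgeR FDR 3.17e-06). With LPS the libraries measured 66.6, 67.9 and 64.6 CPM, and with LPS + TBHQ 64.3, 64.8 and 65.0 CPM. All these libraries lay near the upper end of the control values, with no separation between LPS and LPS + TBHQ. LPS gave 0.10 ± 0.08 (edgeR FDR 0.145), called only when control replicate 3 was left out (0.15), and TBHQ over LPS gave -0.04 ± 0.02 (edgeR FDR 0.702).

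With PIC, *Slc39a14* measured 72.1, 79.5 and 72.1 CPM, and with PIC + TBHQ 73.5, 71.8 and 73.7 CPM. Both sets were above every control library and overlapped each other. PIC raised *Slc39a14* by 0.27 ± 0.09 (edgeR FDR 7.05e-05), a call lost with total library sizes (0.05), and TBHQ over PIC gave -0.03 ± 0.05 (edgeR FDR 0.73). PIC exceeded LPS by 0.17 ± 0.05 (edgeR FDR 0.0194), which was lost without LPS replicate 3 (0.15) or PIC replicate 2 (0.12) and with total library sizes (0.04). PIC + TBHQ exceeded LPS + TBHQ by 0.18 ± 0.01 (edgeR FDR 0.017). This call was lost without LPS + TBHQ replicate 1 (0.17), PIC + TBHQ replicate 1 (0.17) or PIC + TBHQ replicate 3 (0.17), with total library sizes (0.09) and in limma on log2(FPKM + 1) (0.15) or log2(FPKM + 0.1) (0.17). Ordered by mean, the level rose from control through LPS + TBHQ, LPS, PIC + TBHQ and PIC to TBHQ, and the only neighbours without overlap were LPS and PIC + TBHQ.

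Counted over the 5 genes, TBHQ alone was called higher for 3 (*Mt1*, *Mt2* and *Slc39a14*), where 14.2% of all tested genes were called higher and 14.8% lower. LPS against control was called higher for 3 and lower for 1, with 24.0% and 24.1% of all genes in those directions. PIC against control was called higher for 4 of the 5, with 28.6% of all genes higher and 30.1% lower. TBHQ over LPS was called higher for 2, the metallothioneins, with 11.7% of all genes higher and 12.2% lower. TBHQ over PIC was called higher for the same 2 and lower for *Mtf1*, with 15.8% and 15.5% of all genes in those directions. PIC against LPS was called higher for 4 (14.9% of all genes higher, 12.8% lower), and PIC + TBHQ against LPS + TBHQ for *Slc39a14* alone (11.9% higher, 8.39% lower). With total library sizes both of these comparisons were called for 0 of the 5 genes, and over all genes PIC against LPS was called higher for 985 and lower for 4373. The genes were chosen with such results known, so these counts describe them and are no test of the group.

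The difference of the TBHQ change between PIC-stimulated and LPS-stimulated cells was called for 0 of the 5 genes in edgeR and 0 in DESeq2, where 0.825% of all genes were called higher and 1.01% lower in edgeR. At an unadjusted p below 0.05 the count was 1 in edgeR and 2 in DESeq2, where 14.2% and 11.3% of all genes passed. The value for *Mtf1* was -0.23 ± 0.11 (edgeR FDR 0.201), and without LPS replicate 2 it was -0.33 and called. For *Mt1* the value was -0.12 ± 0.07 (edgeR FDR 0.395) and for *Mt2* -0.25 ± 0.34 (edgeR FDR 0.634), which became 0.04 without PIC replicate 3. With both an FDR under 0.01 and a |log2FC| over 2 required, the count was 0 of 5 against the control for TBHQ, LPS and PIC in edgeR and in DESeq2, also with an unadjusted p below 0.05 in place of the FDR. Among all genes 0.190%, 1.64% and 3.57% passed that rule in edgeR, in the same order. The largest |log2FC| of the 5 genes, 1.10 for *Mt2* with PIC in both tools, was below it. Scaling by total library size in place of TMM moved the median change of all genes to -0.23 for PIC against control and -0.14 for PIC against LPS, so the changes given here are relative to the bulk of the genes.

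The remaining metallothioneins were low or without counts. *Mt4*, which is known from stratified epithelium, had 0 counts in every library. *Mt3*, best known from brain, measured 1.08, 0.638 and 0.696 CPM with PIC and 1.68, 1.74 and 2.41 CPM with PIC + TBHQ. The PIC + TBHQ libraries were all higher, from 25 to 39 counts a library against 9 to 15, with a change of 1.28 ± 0.26 (edgeR FDR 0.00317). TBHQ over LPS gave 0.86 ± 0.23 (edgeR FDR 0.0531) and TBHQ alone 0.05 ± 0.28 (edgeR FDR 0.934), neither of them called. None of the words of 50 bases in *Mt3* transcripts occurred in another gene (0%).

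Of the 9 other zinc exporters listed, *Slc30a2* to *Slc30a10*, 7 had a count and 5 were tested. TBHQ alone was called lower for 1 of these 5 and higher for 0 in edgeR (14.8% and 14.2% of all genes), with 0 called in either direction in DESeq2. At an unadjusted p below 0.05, 1 exporter was higher and 1 lower in edgeR (18.8% and 19.1% of all genes), and the same numbers were found in DESeq2 (17.5% and 16.4%). LPS was called higher for 3 and lower for 1 (24.0% and 24.1% of all genes), with a median log2FC of 0.16 against -0.00 for all genes. PIC was likewise called higher for 3 and lower for 1 (28.6% and 30.1% of all genes), with a median of 0.29 against -0.01. With total library sizes these counts became 1 higher and 1 lower for LPS, where 2454 of all genes were called higher and 4558 lower. For PIC they became 2 and 2, where 2379 of all genes were called higher and 6635 lower. The medians there were 0.07 for LPS and 0.08 for PIC, against -0.09 and -0.23 for all genes. TBHQ over LPS was called higher for 1 exporter and lower for 1 (11.7% and 12.2% of all genes). The numbers over PIC were the same (15.8% and 15.5%), or 2 and 1 with total library sizes (3398 and 1436 of all genes). *Slc30a5*, which loads zinc into the early secretory pathway, had the highest FPKM of the list and was the exporter called lower after both stimuli. It measured 127, 126 and 129 CPM in the control, 97.6, 104 and 97.6 with LPS and 92.2, 86.7 and 92.6 with PIC, without overlap with the control. Its change was -0.35 ± 0.03 with LPS (edgeR FDR 6.19e-09) and -0.49 ± 0.03 with PIC (edgeR FDR 1.48e-12). TBHQ raised it by 0.12 ± 0.04 over LPS and 0.16 ± 0.04 over PIC (edgeR FDR 0.0352 and 0.00428). The first of these calls was lost when LPS replicate 1 (0.10) or 3 (0.10) or LPS + TBHQ replicate 1 (0.11) or 3 (0.10) was left out, in the fit of the compared conditions only (0.12) and without the filter (0.13), and the second without PIC replicate 2 (0.11).

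Of the 13 other zinc importers listed, *Slc39a1* to *Slc39a13*, all had a count and 12 were tested. TBHQ alone was called higher for 2 and lower for 3 (14.2% and 14.8% of all genes), with a median log2FC of -0.00 against -0.00 for all genes. DESeq2 gave 2 and 2 importers for TBHQ alone (1767 and 1696 of all genes). LPS was called higher for 6 and lower for 1 (24.0% and 24.1% of all genes, median 0.14 against -0.00), which became 4 and 2 with total library sizes (2454 and 4558 of all genes). PIC was called higher for 6 and lower for 1 (28.6% and 30.1% of all genes, median 0.21 against -0.01), which became 4 and 4 with total library sizes (2379 and 6635 of all genes), with a median of -0.01 against -0.23. Over LPS, TBHQ was called higher for 2 and lower for 3 (11.7% and 12.2% of all genes), and over PIC higher for 3 and lower for 2 (15.8% and 15.5%). The numbers over LPS became 2 and 2 in DESeq2 (1385 and 1421 of all genes) and with total library sizes (2061 and 1401). Those over PIC became 4 and 2 with total library sizes (3398 and 1436 of all genes). *Slc39a1*, a zinc importer of the cell surface, was the most abundant on the FPKM scale, at 67.7 ± 3.61 FPKM (SD, n = 3) in the control and 108 ± 4.28 FPKM with PIC. It rose by 0.29 ± 0.05 with LPS and 0.66 ± 0.06 with PIC (edgeR FDR 6.20e-07 and 9.68e-16), and 21.8% of its words of 50 bases also occur in its pseudogene *Slc39a1-ps*.

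The importers with the widest changes were *Slc39a2* and *Slc39a4*, both at low levels. *Slc39a2* measured 6.88, 7.40 and 6.24 CPM in the control, 1.87, 2.50 and 2.39 with TBHQ, 12.1, 11.0 and 8.38 with LPS and 14.4, 16.4 and 16.0 with PIC. All TBHQ libraries were far below all control libraries, and the stimulated libraries were above them. With TBHQ alone *Slc39a2* was lower than in the control, at -1.60 ± 0.14 (edgeR FDR 3.22e-09), and PIC raised it by 1.19 ± 0.09 (edgeR FDR 5.99e-10). With TBHQ it was lower than with the stimulus alone, at -0.59 ± 0.17 for LPS and -0.40 ± 0.12 for PIC (edgeR FDR 0.00101 and 0.00993), the latter lost without PIC + TBHQ replicate 1 (-0.34). *Slc39a4*, the importer known for intestinal zinc uptake, measured 0.974, 1.10 and 1.71 CPM in the control, 3.06, 3.25 and 3.39 with LPS and 5.73, 5.48 and 6.27 with LPS + TBHQ. These sets rose in steps without overlap, by 1.34 ± 0.23 with LPS and a further 0.85 ± 0.07 with TBHQ (edgeR FDR 1.71e-04 and 0.0046). PIC raised *Slc39a4* by 1.39 ± 0.37 (edgeR FDR 6.51e-05), and TBHQ over PIC gave 0.76 ± 0.31 (edgeR FDR 0.00894). This last call was lost without PIC replicate 1 (0.56) or 2 (0.62) or PIC + TBHQ replicate 1 (0.67), and the value was 1.14 without PIC replicate 3.

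**Figure D2:**
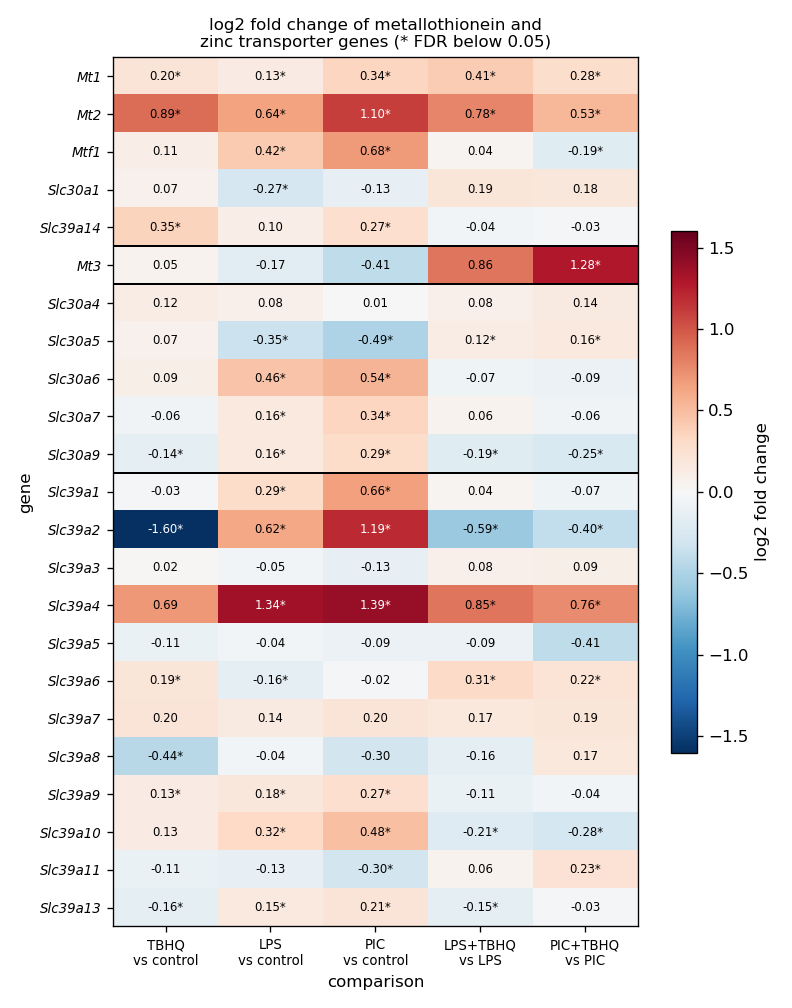
Log2 fold changes (color and printed value) of the 5 zinc genes, *Mt3* and the tested SLC30 and SLC39 transporters (vertical axis) in 5 comparisons (horizontal axis), from edgeR's fit of all 18 libraries, with an asterisk at an FDR below 0.05. *Mt1* and *Mt2* were both called higher in all 5 columns, and the widest decrease was that of *Slc39a2* with TBHQ alone (-1.60).

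Copper is bound by metallothioneins as well, and the 8 genes of copper transport and copper chaperones listed were all tested. LPS was called higher for 5 and lower for 3 of them (24.0% and 24.1% of all genes), with a median log2FC of 0.48 against -0.00 for all genes. DESeq2 gave 5 and 1 for LPS, where 3052 of all genes were called higher and 2893 lower. PIC was called higher for 4 and lower for 3 (28.6% and 30.1% of all genes), with a median of 0.54 against -0.01, or 0.32 against -0.23 with total library sizes. DESeq2 gave 4 and 2 for PIC, where 3848 of all genes were called higher and 3600 lower. TBHQ alone was called higher for 1 and lower for 2 (14.2% and 14.8% of all genes), and TBHQ over LPS higher for 1 and lower for 3 (11.7% and 12.2%). The numbers over LPS became 1 and 2 in DESeq2 (1385 and 1421 of all genes) and with total library sizes (2061 and 1401). TBHQ over PIC was called higher for 0 and lower for 3 in edgeR (15.8% and 15.5% of all genes). DESeq2 gave the same numbers over PIC, where 1674 of all genes were called higher and 2031 lower. With total library sizes TBHQ over PIC was called higher for 2 and lower for 3, where 3398 of all genes were called higher and 1436 lower. Without adjustment, p was below 0.05 for 1 copper gene with a rise and 3 with a fall over PIC in edgeR (20.6% and 19.4% of all genes), and for 0 and 4 in DESeq2 (17.0% and 18.9%). *Slc31a2*, a copper transporter of endosomal membranes, measured 70.2, 75.1 and 71.2 CPM in the control, 153, 151 and 143 with LPS and 166, 177 and 169 with PIC. The groups did not overlap, and the increase was 1.05 ± 0.04 with LPS and 1.24 ± 0.04 with PIC (edgeR FDR 7.51e-21 and 1.64e-23). The copper pump *Atp7a* rose by 1.02 ± 0.03 with PIC (edgeR FDR 4.46e-17), and TBHQ over PIC gave -0.35 ± 0.06 (edgeR FDR 8.31e-06). With TBHQ alone *Atp7a* was higher than in the control, by 0.25 ± 0.05 (edgeR FDR 0.0021). Its relative *Atp7b* had 2, 2 and 0 counts in the control libraries, 17, 26 and 16 with PIC and 3, 6 and 6 with PIC + TBHQ. No fold is given for it, because the control lies at or under the floor of 3 counts. The copper chaperone *Atox1* had the highest FPKM of the list and measured 109 ± 2.38 FPKM (SD, n = 3) in the control and 92.0 ± 3.08 FPKM with LPS, a change of -0.26 ± 0.03 (edgeR FDR 2.05e-04). With PIC it gave -0.14 ± 0.05 (edgeR FDR 0.035), a call lost in 6 of 9 other settings and with 6 of the 18 libraries left out in turn.

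Of the 3 listed genes for zinc-binding proteins released by activated myeloid cells, 1 had a count. *S100a9* and *Ltf*, which encode a calprotectin subunit and lactoferrin, had 0 counts in every library. *S100a8*, the other calprotectin subunit, had 10, 9 and 7 counts in the control libraries and 48, 58 and 67 with PIC, a change of 2.82 ± 0.17 (edgeR FDR 2.28e-09), and rose by 2.05 ± 0.18 with LPS (edgeR FDR 7.45e-06). Interleukin-6 signalling through STAT3 is known to raise *Slc39a14* and metallothionein genes in liver cells, and its genes were listed for that reason. *Il6* measured 0.974, 1.41 and 1.00 CPM in the control, 9.87, 10.6 and 9.21 with LPS and 43.0, 45.2 and 45.7 with PIC. It rose steeply and without overlap between these groups, while the receptor gene *Il6ra* fell with LPS (-0.78 ± 0.05) and with PIC (-1.12 ± 0.11; edgeR FDR 1.70e-12 and 7.98e-17). With TBHQ alone *Il6ra* was higher, at 0.34 ± 0.05 (edgeR FDR 2.86e-05). With TBHQ *Il6* was lower, at -1.43 ± 0.19 against control, -1.34 ± 0.15 over LPS and -1.85 ± 0.11 over PIC (edgeR FDR 0.00111, 8.71e-10 and 4.78e-17). The *Il6* value against the control starts from a low level, 0.974 to 1.41 CPM. It ranged from -1.44 to -0.321 in 9 other settings and was called in each. *Socs3*, a feedback inhibitor of STAT3 signalling, rose by 4.15 ± 0.04 with LPS and 4.82 ± 0.04 with PIC (edgeR FDR 7.77e-34 and 1.24e-36). With TBHQ *Socs3* was higher than in the control (0.76 ± 0.03) and lower over LPS (-0.85 ± 0.04) and over PIC (-0.69 ± 0.05; edgeR FDR 1.53e-08, 5.56e-17 and 2.90e-15). *Stat3* was lower with TBHQ alone (-0.33 ± 0.03, edgeR FDR 4.65e-07) and over PIC (-0.14 ± 0.02, edgeR FDR 0.0123), the latter a call lost with total library sizes (-0.07). *Stat3* gave 0.50 ± 0.03 with PIC (edgeR FDR 2.41e-12), and from 0.28 to 0.523 in 9 other settings, called in each. The co-receptor gene *Il6st* gave -0.01 ± 0.03 with PIC and was not called (edgeR FDR 0.829). With LPS *Il6st* was called lower (-0.12 ± 0.02, edgeR FDR 0.0426). That call was lost in 7 of 9 other settings, DESeq2 among them (-0.11), and with 11 of the 18 libraries left out in turn. The part of these genes in the results on the zinc genes was not tested.

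Genes known to answer TBHQ were read as a reference for the treatment. *Gclm*, a subunit of the enzyme that starts glutathione synthesis, rose by 1.82 ± 0.03 with TBHQ alone, by 0.98 ± 0.03 over LPS and by 1.10 ± 0.04 over PIC (edgeR FDR 7.84e-29, 1.61e-21 and 1.75e-22). *Txnrd1*, thioredoxin reductase, rose 2.46-fold, 1.35-fold and 1.22-fold in the same comparisons (edgeR FDR 1.35e-27, 4.49e-14 and 1.18e-09). *Hmox1*, heme oxygenase, rose by 2.09 ± 0.05 with TBHQ alone (edgeR FDR 3.46e-31). It was lower with TBHQ than without it after LPS (-0.30 ± 0.04, edgeR FDR 1.97e-08) and after PIC (-0.16 ± 0.03, edgeR FDR 2.90e-04). The value after PIC ranged from -0.184 to -0.0958 in 9 other settings and was called in each.

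Over the 18 libraries, the genes whose log2 CPM was most like that of each zinc gene were found among 10451 genes with a mean of at least 50 counts, as a description across libraries that share their treatments. For *Mt1* these were *Lrrc59* (r = 0.959), *Gm3375* (0.946) and *Sh2d3c* (0.939). For *Mt2* they were *Ftl1* (r = 0.954), *Adrm1* (0.951) and *Cd9* (0.935), of which *Ftl1* encodes the ferritin light chain. *Mtf1* was most like *Pip5k1a* (r = 0.953), *Mllt11* (0.953) and *Avl9* (0.953). *Slc30a1* was most like *Bid* (r = 0.863), *Idh3b* (0.860) and *Srsf9* (0.859), and *Slc39a14* most like *Msl2* (r = 0.930), *Spata13* (0.898) and *Soga1* (0.886). Among the zinc genes themselves, *Mt1* and *Mt2* were the closest pair (r = 0.853, n = 18), and the lowest value was that of *Mtf1* and *Slc30a1* (r = -0.444, n = 18).

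The promoters of *Mt1* and *Mt2* are shown because these neighbouring genes moved together and because MTF1 binds known motifs in metallothionein promoters. RefSeq promoter windows (GRCm38.p6, 250 bases before to 50 bases after the gene start) were given for 4 of the 5 genes, *Slc39a14* being the exception. The core of the metal response element was searched as TGCACNC or TGCGCNC on both strands, letters that differ at 1 base and so never match the same stretch on the same strand. Either core was present in 25.7% of all 32851 promoters. The *Mt2* window held 4 matches, a number reached by 0.517% of all promoters, and the *Mt1* window held 3 (1.97%). *Slc30a1* held 2 (7.11%), and these letters were not in the *Mtf1* window. The core of the antioxidant response element, TGACNNNGC, occurred once each in the *Mt2* and *Slc30a1* windows and in 12.4% of all promoters.

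The 250 bases before the gene start are printed on the plus strand, with metal response element cores in capitals, at chr8:94178839-94179088 for *Mt1* and chr8:94172368-94172617 for *Mt2* (GRCm38.p6). The *Mt1* stretch holds 1 of its 3 matches and the *Mt2* stretch 3 of its 4, the others lying after the start.
Mt1: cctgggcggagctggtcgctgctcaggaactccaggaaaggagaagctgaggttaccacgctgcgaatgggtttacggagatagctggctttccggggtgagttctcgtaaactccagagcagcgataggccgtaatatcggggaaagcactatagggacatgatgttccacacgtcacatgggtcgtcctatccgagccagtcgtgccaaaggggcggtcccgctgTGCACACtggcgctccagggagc
Mt2: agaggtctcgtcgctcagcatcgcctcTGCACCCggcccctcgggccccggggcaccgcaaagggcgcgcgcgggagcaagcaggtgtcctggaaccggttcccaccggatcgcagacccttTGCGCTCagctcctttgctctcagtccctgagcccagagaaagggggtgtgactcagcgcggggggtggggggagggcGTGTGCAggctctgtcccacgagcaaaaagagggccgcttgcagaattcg
These windows depend on the start used: RefSeq places it at 94179089 for *Mt1*, whereas the 3 GENCODE transcripts of *Mt1* on the same build start at 94179082, 94179211 and 94179241. For *Mt2* RefSeq places it at 94172618, and the 2 GENCODE transcripts start 46 and 242 bases after it, so no GENCODE start lies at the one used for its count of matches. A match is a description of the letters and not of a bound site.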

How the data were processed

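Raw counts per gene and FPKM were deposited by the authors for 18 libraries. HISAT2 2.0.5, StringTie 1.3.3b and featureCounts 1.5.0-p3 are named in the submitters' processing notes, with the builds GRCm38 and mm39. The deposited FPKM equal FPKM recomputed from counts, gene lengths and total counts times 1 constant per library, from 0.943 to 1.12, lowest in a control and highest in a PIC library. They are therefore not scaled to total library size alone. Gene positions are those of the authors' files, which are not GRCm38 coordinates.

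Counts were filtered with filterByExpr, scaled by TMM and tested in edgeR 4.0.16 (R 4.3.3) with glmQLFit and glmQLFTest in 1 fit over all libraries. SEs came from log2 CPM with a prior count of 2. Alternatives were DESeq2 1.42.0, limma 3.58.1 on FPKM, other scalings, filters and samples, a replicate block, and leaving out each library. The code was tested on simulated data.

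P-values measure the spread between replicate libraries of 1 cell line. Members and lists were chosen with earlier results of these data known. From the lists, genes called with a |log2FC| of at least 1 in a comparison with the control or of TBHQ with a stimulus, and the gene with the highest FPKM, were named, and all genes of the secreted protein, interleukin-6 and TBHQ lists. Replicates of a condition differed by more than sampling noise. Floors of 3 counts cover counting error only.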

Additional observations from a re-analysis of the deposited data

How the results depend on the processing

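The 40 log2 fold changes of the 5 zinc genes were computed in 9 other settings and with each of 18 libraries left out. Of the 21 called values, 12 were called with the same sign in every setting, and 0 reversed. Below, PIC minus LPS is the difference of the TBHQ change between the stimuli.

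In DESeq2 the call was lost for *Mt2* PIC + TBHQ against PIC (0.525), *Mt2* PIC against LPS (0.447). There the sign changed, without a call, for *Slc39a14* PIC minus LPS (-0.00603).

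With the compared conditions only the sign changed, without a call, for *Slc39a14* PIC minus LPS (-0.00567).

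With RLE size factors the sign changed, without a call, for *Slc39a14* PIC minus LPS (-0.00736).

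With total library size the call was lost for *Mt1* LPS against control (0.0468), *Slc39a14* PIC against control (0.0481), *Mtf1* PIC + TBHQ against PIC (-0.125), *Mt1* PIC against LPS (0.078), *Mt2* PIC against LPS (0.322), *Mtf1* PIC against LPS (0.131), *Slc39a14* PIC against LPS (0.0378), *Slc39a14* PIC + TBHQ against LPS + TBHQ (0.0895). There a call was gained for *Slc30a1* PIC against control (-0.349), *Slc30a1* LPS + TBHQ against LPS (0.212), *Slc30a1* PIC + TBHQ against PIC (0.247). There the sign changed, without a call, for *Slc39a14* PIC + TBHQ against PIC (0.0401), *Mt1* PIC + TBHQ against LPS + TBHQ (-0.00182), *Mtf1* PIC + TBHQ against LPS + TBHQ (-0.0549), *Slc30a1* PIC minus LPS (0.0356). There counts moved for the number of the 5 genes called for PIC against LPS (0), the number of the 5 genes called for PIC + TBHQ against LPS + TBHQ (0).

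With no filter the sign changed, without a call, for *Slc39a14* PIC minus LPS (-0.00968). There counts moved for the number of all genes called for PIC minus LPS (380).

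With a mean of at least 50 counts the sign changed, without a call, for *Slc39a14* PIC minus LPS (-0.00502).

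In limma on log2(FPKM + 1) the call was lost for *Mt2* PIC against LPS (0.406), *Slc39a14* PIC + TBHQ against LPS + TBHQ (0.149). There the sign changed, without a call, for *Slc39a14* PIC minus LPS (-0.00523). There counts moved for the number of the 5 genes called for PIC + TBHQ against LPS + TBHQ (0).

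In limma on log2(FPKM + 0.1) the call was lost for *Mt2* PIC against LPS (0.418), *Slc39a14* PIC + TBHQ against LPS + TBHQ (0.169). There the sign changed, without a call, for *Slc39a14* PIC minus LPS (-0.0053). There counts moved for the number of the 5 genes called for PIC + TBHQ against LPS + TBHQ (0), the number of all genes called for PIC minus LPS (147).

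With the replicate block a call was gained for *Slc30a1* LPS + TBHQ against LPS (0.186), *Slc30a1* PIC + TBHQ against PIC (0.179).

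Leaving out 1 library gave these lowest and highest values where a call, sign or count changed. They were *Slc30a1* PIC against control -0.181 to -0.0751, *Mt1* LPS against control 0.069 to 0.196, *Slc39a14* LPS against control 0.0243 to 0.148, *Mtf1* LPS + TBHQ against LPS -0.0412 to 0.117, *Mt2* PIC against LPS 0.145 to 0.634, *Mtf1* PIC minus LPS -0.326 to -0.158, *Slc30a1* PIC minus LPS -0.0726 to 0.031. Next came *Slc39a14* PIC minus LPS -0.0323 to 0.0401, the number of the 5 genes called for PIC minus LPS 0 to 1, *Slc39a14* PIC against LPS 0.123 to 0.195, *Mt2* PIC + TBHQ against PIC 0.379 to 0.821, *Slc39a14* PIC + TBHQ against PIC -0.0684 to 0.00406, *Mt2* PIC minus LPS -0.448 to 0.0416, *Slc30a1* LPS + TBHQ against LPS 0.135 to 0.252. Last were *Slc30a1* PIC + TBHQ against PIC 0.116 to 0.215, *Slc39a14* PIC + TBHQ against LPS + TBHQ 0.163 to 0.182, the number of the 5 genes called for PIC + TBHQ against LPS + TBHQ 0 to 1, the number of all genes called for PIC minus LPS 160 to 354, *Mtf1* PIC + TBHQ against PIC -0.234 to -0.16, *Mtf1* PIC + TBHQ against LPS + TBHQ -0.00758 to 0.0671.

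The share of called genes that were higher moved by over 10 points with total library size: 49.8% to 35% for LPS against control, 48.7% to 26.4% for PIC against control, 48.9% to 59.5% for TBHQ over LPS and 50.6% to 70.3% for TBHQ over PIC. It moved from 53.7% to 18.4% for PIC against LPS, 58.5% to 25.6% for PIC + TBHQ against LPS + TBHQ and 45% to 76.1% for PIC minus LPS. The last share was 29.1% in DESeq2 and 32.5% in limma on log2(FPKM + 1). PIC minus LPS was called for 251 genes, against 380 with no filter and 147 in limma on log2(FPKM + 0.1).

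Replicate numbers were checked for shared batches: 0 of 45 pairs of libraries with the same number had residuals correlated above 0.1. The promoter motif share of 25.7% was 12.6% for TGCACNC alone and 15.4% for TGCGCNC alone.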
